A study of Mus musculus with 18 samples.

Results

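Wfdc21, Npr1, Gpr31b, Serpinf1 and Grin2c are 5 of the 54532 genes in a raw count table of mouse plasmacytoid dendritic cells (pDCs) given imiquimod, and all 5 were among the 14876 genes that passed a filter on low counts. They were chosen by their values in these same libraries, as genes outside the interferon and cytokine families that changed strongly with imiquimod at 6 h or 16 h, so their imiquimod values are given here as a description with no test. Wfdc21, Npr1 and Gpr31b reached a count of 10 in imiquimod libraries only, so a gene of that kind had to differ to be tested at all. Total RNA depleted of ribosomal RNA was sequenced from 18 libraries, 3 in each of 6 groups. All groups were wild-type C57BL/6 bone marrow cells grown for 7 days with Flt3 ligand (Flt3L, 80 ng/mL), enriched with beads against B220 to a routine purity of 80%. The groups were imiquimod at 2.5 µg/mL for 6 h and for 16 h, the vehicle (named LAL, Limulus amebocyte lysate) at 0 h, 6 h and 16 h, and untreated cells at 0 h. No label ties a library to an animal or a culture, so p-values measure only the spread between libraries, which may be technical. In bulk samples such as these, more cells with a transcript and more transcript per cell cannot be told apart.

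Imiquimod is a small molecule that activates the endosomal RNA sensor TLR7, and pDCs are the immune cells best known for answering TLR7 with type I interferon. Wfdc21 encodes a small secreted protein with a whey acidic protein (WAP) domain, a fold shared with antiproteases, and its human counterpart is transcribed as the dendritic cell long noncoding RNA lnc-DC. Npr1 encodes the cell surface receptor for the atrial and brain natriuretic peptides, which makes the second messenger cyclic GMP inside the cell. Gpr31b encodes a G protein-coupled receptor, described in human cells as a receptor for the lipoxygenase product 12-HETE and in mouse gut phagocytes as one for lactate and pyruvate. Serpinf1 encodes pigment epithelium-derived factor (PEDF), a secreted serpin that limits blood vessel growth and does not inhibit proteases. Grin2c encodes GluN2C, a subunit of the NMDA type of glutamate receptor, which is known from cerebellum and needs the subunit encoded by Grin1 to form a channel.

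In the RefSeq table (GRCm38.p6), 4 of the 5 genes have a promoter sequence, from 250 bases before to 50 bases after the gene start, and Wfdc21 does not. These are shown because they fall into dissimilar kinds of sequence, and CpG pairs are in capitals.

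Npr1, chr3:90465817-90466116, minus strand: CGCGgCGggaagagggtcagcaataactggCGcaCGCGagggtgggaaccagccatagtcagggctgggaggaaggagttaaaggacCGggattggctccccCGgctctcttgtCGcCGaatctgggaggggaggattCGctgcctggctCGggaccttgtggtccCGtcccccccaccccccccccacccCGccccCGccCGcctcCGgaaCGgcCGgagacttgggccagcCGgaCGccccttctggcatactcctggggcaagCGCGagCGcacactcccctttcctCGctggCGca
Grin2c, chr11:115267194-115267493, minus strand: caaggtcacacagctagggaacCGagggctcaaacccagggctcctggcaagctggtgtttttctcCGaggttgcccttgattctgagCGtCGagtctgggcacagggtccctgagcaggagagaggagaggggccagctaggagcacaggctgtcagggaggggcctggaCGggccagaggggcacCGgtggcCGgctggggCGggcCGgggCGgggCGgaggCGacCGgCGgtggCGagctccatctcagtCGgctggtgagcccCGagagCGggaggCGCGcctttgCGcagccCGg
Gpr31b, chr17:13052231-13052530, minus strand: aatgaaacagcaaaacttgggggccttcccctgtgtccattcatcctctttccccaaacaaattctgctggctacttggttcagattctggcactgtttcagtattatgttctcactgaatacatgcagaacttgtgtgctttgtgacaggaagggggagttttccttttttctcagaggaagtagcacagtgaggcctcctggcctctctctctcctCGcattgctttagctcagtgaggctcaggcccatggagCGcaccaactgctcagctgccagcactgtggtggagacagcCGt
Serpinf1, chr11:75422574-75422873, minus strand: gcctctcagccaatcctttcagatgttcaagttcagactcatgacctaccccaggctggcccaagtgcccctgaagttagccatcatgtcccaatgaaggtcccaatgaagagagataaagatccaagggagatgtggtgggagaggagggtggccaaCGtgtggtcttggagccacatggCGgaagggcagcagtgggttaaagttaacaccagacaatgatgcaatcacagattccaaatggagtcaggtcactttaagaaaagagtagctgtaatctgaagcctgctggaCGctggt

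The Npr1 promoter held 26 CpG pairs with 69.7% GC and the Grin2c promoter 22 with 70.0%. The Gpr31b and Serpinf1 promoters each held 3 CpG pairs with 50.7% GC. The median of all 32851 promoters in the table was 7 pairs and 52.7% GC, and 83.1% of promoters had fewer CpG pairs than Npr1, 76.9% fewer than Grin2c and 23.3% fewer than Gpr31b or Serpinf1. As described below, the CpG-rich promoters belong to the genes that were higher at 6 h than at 16 h of imiquimod, and the CpG-poor ones to genes that were higher at 16 h. With 4 promoters this is a description only. A search on both strands covered 4 motifs. The interferon regulatory factor motif AANNGAAA occurs in 23.9% of all promoters, the GAS motif TTCNNNGAA in 8.30%, the AP-1 motif TGANTCA in 7.81% and the kappaB motif, searched by its usual degenerate form, in 8.46%. Of the 4 promoters, matches were found in Gpr31b alone, an interferon regulatory factor match on the opposite strand whose leftmost base lay 89 bases before the start, and a kappaB match that began 231 bases before it. The Gpr31b start in this table is followed directly by the letters ATG, and the GENCODE gene reaches 13052296, further upstream. Its window may thus end in coding sequence, and these distances and its CpG count hold for that start only. The GENCODE gene of Serpinf1 reaches 75422701, also upstream of the start used here. The Serpinf1 CpG count and lack of matches thus hold for that start only, and both CpG-poor promoters have uncertain starts. A match describes letters in a promoter window and not a site in use.

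Library totals ran over a narrow range of 10609741 to 13447018 counts. All 10 pDC markers were detected, and their summed level was 4462 to 4629 CPM (counts relative to library size, scaled between libraries by TMM) in imiquimod 6 h libraries, against 5027 to 5328 CPM in vehicle 6 h libraries, and 2749 to 2807 CPM in imiquimod 16 h libraries, against 6604 to 6679 CPM in vehicle 16 h libraries. The pDC markers did not move together. By group means at 6 h, Siglech, Ccr9, Cox6a2, Pacsin1 and Runx2 were lower with imiquimod, and Bst2, Tcf4, Ly6d, Klk1 and Spib were higher. At 16 h Bst2, Ly6d and Klk1 were higher and the others lower. Like the pDC sum, the sums of monocyte and macrophage markers and of conventional dendritic cell markers were lower with imiquimod at both times. Some of their markers, among them Fcgr1, Cd14 and Zbtb46, were higher at both times. The B cell marker sum was higher, at 171 to 185 CPM with imiquimod, against 108 to 118 CPM with vehicle at 6 h, and at 192 to 205 CPM with imiquimod, against 115 to 144.5 CPM with vehicle at 16 h. Pax5 made up most of the B cell sum with imiquimod, at 112 CPM at 6 h and 133 CPM at 16 h. Cd79a, Cd79b, Ms4a1, Ebf1 and Vpreb1 were lower with imiquimod at both times. The T and NK cell sum at 16 h was 3.23 to 4.24 CPM with imiquimod, against 0.368 to 0.798 CPM with vehicle. Most of it with imiquimod was Klrb1c, at 3.01 CPM. The part of these markers in the results was not tested.

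Imiquimod libraries held far more Wfdc21, Npr1 and Gpr31b than vehicle libraries at both times. Grin2c stood out mainly at 6 h and Serpinf1 at 16 h. At 6 h, 4 of the 5 genes had all 3 imiquimod libraries above all 3 vehicle libraries, and Serpinf1 was the exception. At 16 h, 5 of 5 did. Of all genes tested, 37.5% lay higher without overlap in this way at 6 h and 40% at 16 h, and since these contrasts chose the genes nothing is read from the counts. Under imiquimod, Wfdc21, Gpr31b and Serpinf1 were higher at 16 h than at 6 h, while Npr1 and Grin2c were lower. No gene of the 5 overlapped between these times, and 67.5% of all genes tested did not overlap either.

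**Figure D1:**
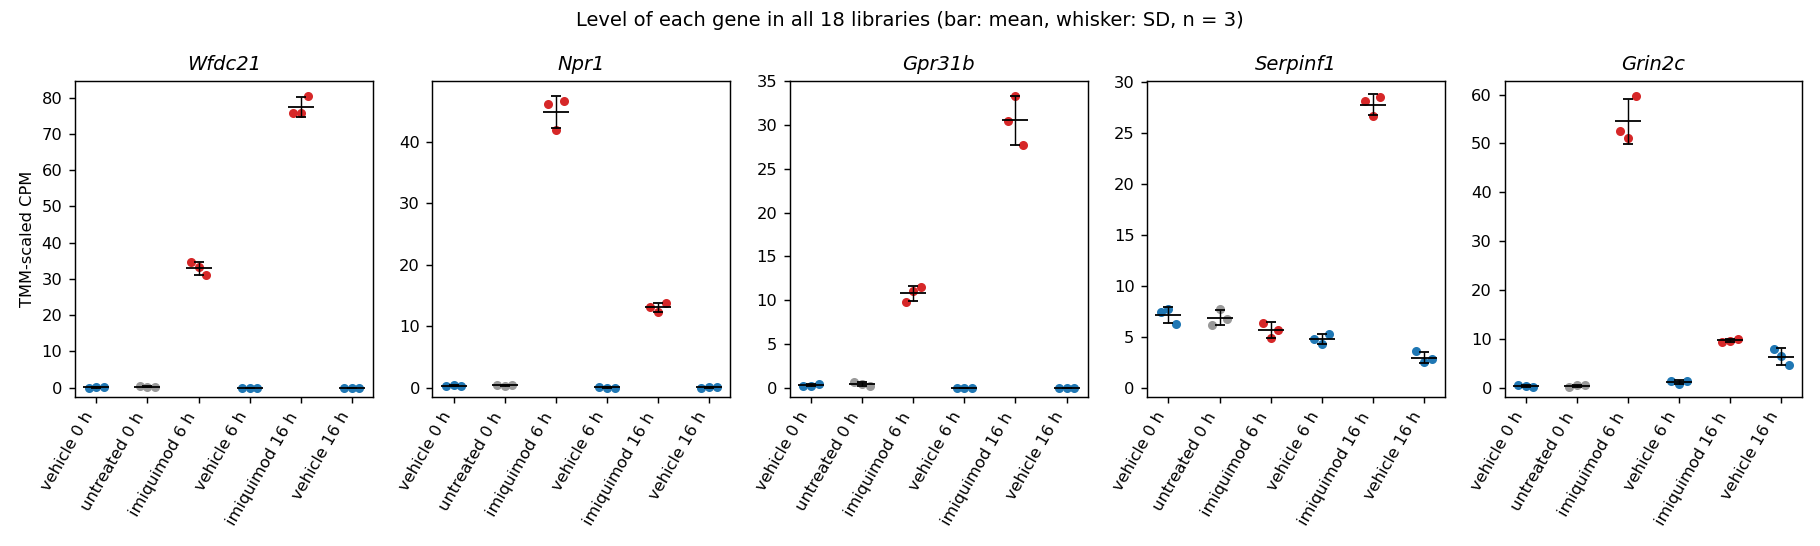
Level of each gene in TMM-scaled CPM (vertical axis, its own scale in each panel) in the 18 libraries by group; points are libraries, horizontal bars the group mean and whiskers the SD (n = 3). Wfdc21, Gpr31b and Serpinf1 were highest at imiquimod 16 h (means of 77.3, 30.5 and 27.8 CPM), and Npr1 and Grin2c at imiquimod 6 h (44.9 and 54.5 CPM).

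Wfdc21 (ENSMUSG00000051748.2) lies on the plus strand at chr11:83746940-83752642 (mm10), with 434 bases of exon. It had 34.6, 33.3 and 31.0 CPM in the imiquimod 6 h libraries, against 0 counts in all 3 vehicle 6 h libraries. At 16 h it had 75.7, 75.7 and 80.6 CPM with imiquimod, again against 0 counts in every vehicle library. The groups lay wholly apart at both times, and imiquimod replicates differed little from each other. With a floor of 3 counts over a vehicle group at 0, Wfdc21 was at least 418-fold higher with imiquimod at 6 h, from 1013 summed counts, and at least 866.5-fold higher at 16 h, from 3049. Its level at imiquimod 16 h was 2.34 times that at imiquimod 6 h (exact 95% interval 2.18 to 2.52; all such intervals cover counting error only). At 0 h it was close to nothing, with 0, 1 and 2 counts in vehicle libraries and 4, 2 and 1 in untreated libraries. From highest to lowest the order was imiquimod 16 h, imiquimod 6 h, untreated, vehicle 0 h, and the later vehicle groups at 0, and neither the 0 h groups, nor vehicle 0 h and the later vehicle groups, differed beyond their spread. Wfdc21 is known as a neutrophil transcript in mouse, and 12 of 13 neutrophil markers were detected, with a summed level of 6.87 to 7.77 CPM in imiquimod 16 h libraries, against 1.39 to 3.22 CPM in vehicle 16 h libraries. At 6 h the sums overlapped, at 1.355 to 3.44 CPM with imiquimod, against 2.005 to 2.71 CPM with vehicle. Most of the 16 h sum was Csf3r, the receptor for the granulocyte growth factor G-CSF. Csf3r stood at 7.08 CPM in imiquimod 16 h libraries, and each other neutrophil marker was at 0.128 CPM or less there. S100a8 and S100a9 were at 0 in imiquimod 16 h libraries, and Retnlg was at 0 in every library. The part of these markers in the Wfdc21 levels was not tested.

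Npr1 (ENSMUSG00000027931.12) lies on the minus strand at chr3:90450591-90465866, with 4783 bases of exon. It had 46.1, 41.8 and 46.6 CPM in the imiquimod 6 h libraries, against 2, 0 and 0 counts in the vehicle 6 h libraries. At 16 h it had 13.2, 12.3 and 13.7 CPM with imiquimod, against 0, 1 and 1 counts with vehicle. A receptor gene that was nearly silent in vehicle was thus present in every imiquimod library. The ratio of imiquimod to vehicle was 852 at 6 h (exact 95% interval 235 to 7042, from 1377 and 2 summed counts) and 219.5 at 16 h (60.5 to 1818, from 515 and 2). The level at imiquimod 16 h was 0.291 times that at 6 h (0.263 to 0.322). Vehicle 0 h libraries had 3, 5 and 4 counts and untreated libraries 5, 4 and 5, which overlap. The order was imiquimod 6 h, imiquimod 16 h, untreated, vehicle 0 h, vehicle 16 h and vehicle 6 h, and neither the 0 h groups nor the later vehicle groups differed from each other beyond their spread. The antisense gene Gm16048 overlaps an exon of Npr1 and had 3 counts in all 18 libraries together. Npr1 is well known from endothelium, and all 4 endothelial markers were detected, at a summed level of 2711 to 2901 CPM in imiquimod 6 h libraries, against 243 to 258 CPM in vehicle 6 h libraries. At 16 h this sum was 1749 to 1777 CPM with imiquimod, against 282 to 309 CPM with vehicle. The sum was mostly Kdr, a receptor for vascular endothelial growth factor, at 2199 CPM in imiquimod 6 h libraries, and Cdh5, the endothelial cadherin, and Pecam1, an adhesion molecule, were also higher, at 225 and 401 CPM with imiquimod, against 19.97 and 198 CPM with vehicle. Tek, an angiopoietin receptor, was at 0 in imiquimod 6 h libraries, against 0.0531 CPM in vehicle 6 h libraries. The part of these markers in the Npr1 levels was not tested.

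Gpr31b (ENSMUSG00000071311.2) is a single exon of 1283 bases on the minus strand at chr17:13051014-13052296. It had 9.80, 11.04 and 11.5 CPM in the imiquimod 6 h libraries, against 0 counts in all 3 vehicle 6 h libraries. At 16 h it had 30.5, 33.4 and 27.7 CPM with imiquimod, and once more 0 counts in every vehicle library. The groups lay apart at both times, as for Wfdc21. Gpr31b was at least 136.5-fold higher with imiquimod at 6 h, from 331 summed counts, and at least 343-fold higher at 16 h, from 1207. Imiquimod 16 h exceeded imiquimod 6 h by 2.84 times (2.51 to 3.21). At 0 h there were 2, 3 and 5 counts in vehicle libraries and 7, 6 and 2 in untreated libraries. These 0 h groups overlapped, and the order was otherwise imiquimod 16 h, imiquimod 6 h, the 0 h groups, and later vehicle at 0. The share of reads that belongs to Gpr31b is uncertain, because 80.4% of its 75-base windows also occur in transcripts of other genes of this family: 58.7% in AC166110.3, 43.9% in Gm6553 and 33.3% in Gpr31a. How the authors counted reads with several matches is not given in the sources used here, and Gm6553 and Gpr31a were not analysed here. AC166110.3, a transcribed processed pseudogene at chr17:13341241-13345880, showed the same shape with more counts. It had 171, 170 and 190 counts in imiquimod 6 h libraries, against 0 in all vehicle 6 h libraries, and 705, 662 and 619 in imiquimod 16 h libraries, against 0 in all vehicle 16 h libraries.

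Serpinf1 (ENSMUSG00000000753.15) lies on the minus strand at chr11:75409769-75422701, with 2359 bases of exon. The description of a gene switched on by imiquimod did not hold for it, because it was already present at 0 h and was not set apart at 6 h. It had 6.37, 4.84 and 5.70 CPM in the imiquimod 6 h libraries, against 4.82, 4.32 and 5.25 CPM in the vehicle 6 h libraries, and these overlap. The ratio at 6 h was 1.18 (0.950 to 1.46), and its direction depended on the scaling, since the log2 ratio of 0.23 became -0.12 when libraries were scaled by their totals. At 16 h it had 28.1, 26.7 and 28.5 CPM with imiquimod, against 3.58, 2.48 and 2.79 CPM with vehicle. These groups lay wholly apart, with a ratio of 9.44 (7.68 to 11.7). Imiquimod 16 h exceeded imiquimod 6 h by 4.93 times (4.196 to 5.82). Vehicle 0 h libraries had 7.47, 7.73 and 6.26 CPM and untreated libraries 6.17, 7.70 and 6.78 CPM. The order was imiquimod 16 h, then vehicle 0 h and untreated, which overlapped, then imiquimod 6 h, which overlapped both 0 h groups and also vehicle 6 h, then vehicle 6 h, and vehicle 16 h lowest. PEDF is made by many stromal cells. All 7 stromal markers were detected, and their summed level was 3.38 to 8.18 CPM in imiquimod 16 h libraries, against 4.35 to 8.34 CPM in vehicle 16 h libraries, and these ranges overlap. They did not overlap at 6 h, at 4.65 to 6.96 CPM with imiquimod, against 3.58 to 4.55 CPM with vehicle, nor at 0 h, at 10.03 to 16.6 CPM with vehicle, against 5.47 to 8.32 CPM in untreated cells. The part of these markers in the Serpinf1 levels was not tested.

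Grin2c (ENSMUSG00000020734.13) lies on the minus strand at chr11:115249169-115267243, with 5037 bases of exon. It had 52.6, 51.2 and 59.8 CPM in the imiquimod 6 h libraries, against 1.40, 0.771 and 1.31 CPM in the vehicle 6 h libraries. By 16 h it had 9.36, 9.61 and 10.0 CPM with imiquimod, against 7.99, 6.47 and 4.61 CPM with vehicle. The gap was wide at 6 h and narrow at 16 h, where the lowest imiquimod library still lay above the highest vehicle library. The ratio was 47.1 at 6 h (34.9 to 65.1) and 1.525 at 16 h (1.29 to 1.81). Imiquimod 16 h stood at 0.177 times imiquimod 6 h (0.158 to 0.198). At 0 h Grin2c had 6, 4 and 2 counts in vehicle libraries and 2, 6 and 6 in untreated libraries. From the top, the order was imiquimod 6 h, imiquimod 16 h, vehicle 16 h, vehicle 6 h, untreated and vehicle 0 h, and of these neighbours the 0 h groups alone overlapped. The miRNA gene model Gm25837 inside Grin2c had 0 counts in all libraries. Grin2c is best known from neurons and glia. Of 4 neuronal markers 3 were detected, at a summed level of 11.7 to 14.4 CPM in imiquimod 6 h libraries, against 4.63 to 5.09 CPM in vehicle 6 h libraries. At 16 h the sum was lower, at 2.73 to 3.44 CPM with imiquimod, against 4.17 to 6.34 CPM with vehicle. Nearly all of the 6 h sum was Map2, a microtubule protein, at 12.3 CPM with imiquimod, against 3.81 CPM with vehicle. The synaptic gene Syp had 0.423 CPM with imiquimod, against 1.11 CPM with vehicle, and Snap25 was at 0 in every library. The part of these markers in the Grin2c levels was not tested.

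**Figure D2:**
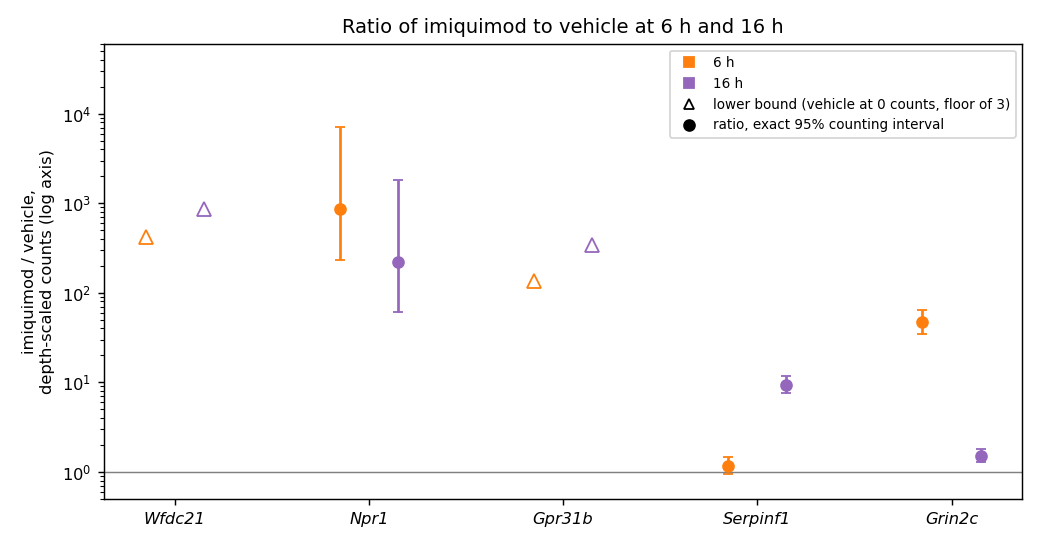
Ratio of imiquimod to vehicle (vertical axis, log scale, depth-scaled summed counts) for each gene at 6 h and 16 h; circles are ratios with exact 95% counting intervals and open triangles are lower bounds from a floor of 3 counts. The circles run from 1.18 for Serpinf1 at 6 h, whose direction turned under scaling by library totals, to 852 for Npr1 at 6 h. The highest triangle is the lower bound of 866.5 for Wfdc21 at 16 h.

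Levels of different genes are compared per kilobase of exon. At imiquimod 16 h Wfdc21 reached 178 CPM per kb, above 99.1% of all genes tested, with Gpr31b at 23.8, Serpinf1 at 11.8, Npr1 at 2.73 and Grin2c at 1.92 CPM per kb. At imiquimod 6 h Wfdc21 led with 76.0 CPM per kb, above 95.9% of genes, followed by Grin2c at 10.8, Npr1 at 9.38, Gpr31b at 8.40 and Serpinf1 at 2.39 CPM per kb. Wfdc21 stood near the top of all genes at both times, while the other 4 lay above 30.1% to 87.2% of genes at imiquimod 16 h. The place of Gpr31b, which holds the 87.2%, is uncertain at both times. Its level uses the whole exon, only 19.6% of its windows occur in no other gene, and the handling of reads with several matches is not known.

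Without imiquimod, Grin2c rose over time in vehicle culture and Serpinf1 fell. Npr1, Gpr31b and Wfdc21 had few counts at 0 h and 0 to 2 in any later vehicle library. These comparisons hold no imiquimod library. The vehicle libraries at 6 h and 16 h were nevertheless what the choice of genes was made against, which favours low values there: the lower values go the way the choice favours and are no independent support, and the rise of Grin2c goes against it. With edgeR's quasi-likelihood test and Benjamini-Hochberg adjustment over all genes, 1 gene was higher, 3 were lower and 1 was not called in vehicle 6 h against vehicle 0 h, and the same split held in vehicle 16 h against vehicle 0 h. The test called 52.9% of all genes at 6 h and 58.4% at 16 h, and being called was thus common in these comparisons. Grin2c rose by 1.80 on the log2 scale at vehicle 6 h (SE 0.45, edgeR adjusted p = 0.000445) and by 4.24 at vehicle 16 h (SE 0.30, adjusted p = 3.86e-21), with 18, 10 and 16 counts at vehicle 6 h and 87, 73 and 53 at vehicle 16 h, against 6, 4 and 2 at vehicle 0 h. All 3 libraries lay above all 3 at each time. Serpinf1 fell by 0.58 at vehicle 6 h (SE 0.15, edgeR adjusted p = 0.000492) and fell by 1.28 at vehicle 16 h (SE 0.17, adjusted p = 3.48e-10), lower in 3 of 3 libraries each time.

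The values of the other 3 genes rest on few counts, and these genes were tested here only because their imiquimod libraries passed the filter. With only the groups compared, none of the 3 passed it at either time, and Grin2c passed it at 16 h but not at 6 h, so that fit gave no value for them. The calls are therefore given as a description. Gpr31b had 0 counts in vehicle 6 h and vehicle 16 h, against 10 summed counts at vehicle 0 h (edgeR adjusted p = 0.00127 and 0.00177). Npr1 had 2 summed counts at each later time, against 12 at vehicle 0 h, with log2 changes of -2.41 (SE 0.83, adjusted p = 0.0113) and -2.26 (SE 0.85, adjusted p = 0.0175). The Npr1 call was lost when single libraries were left out, at 6 h without vehicle 6 h replicate 2 (adjusted p = 0.0685) or 3 (0.0601), and at 16 h without vehicle 0 h replicate 2 (0.059) or vehicle 16 h replicate 1 (0.0857). Wfdc21 had 0 counts at both later times, against 3 at vehicle 0 h, and was not called (edgeR adjusted p = 0.073 and 0.0812). It was called without vehicle 0 h replicate 1, the library with 0 counts (0.0388 and 0.0435). In vehicle 0 h against untreated cells, 0 of the 5 genes were called, and of all genes tested the share called was 0%. There 708 genes had an unadjusted p under 0.05 by edgeR, and DESeq2 called 0.

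**Figure D3:**
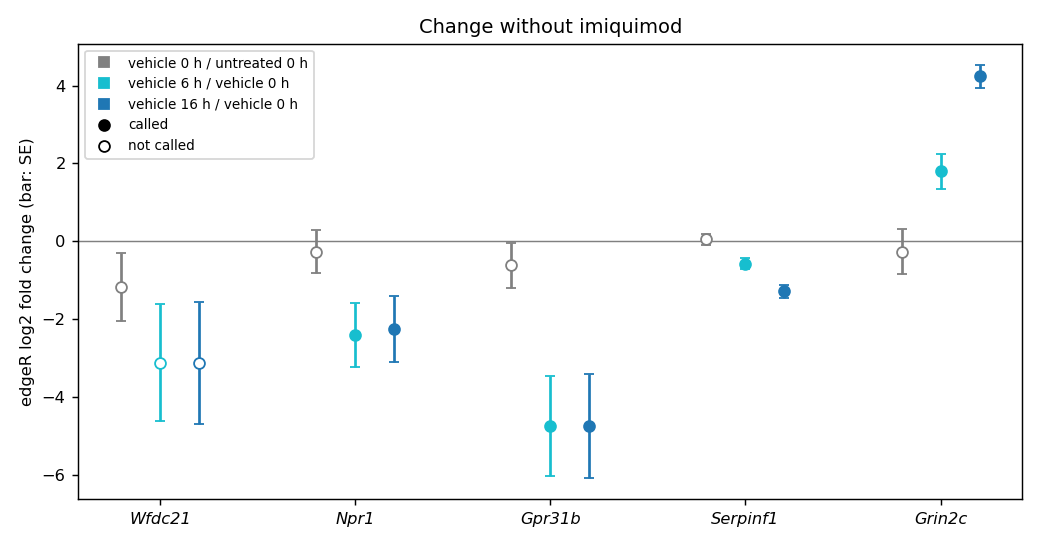
edgeR log2 fold change (vertical axis; bars are the SE) of each gene between groups without imiquimod; filled circles were called at an adjusted p under 0.05 and open circles were not. Grin2c rose (1.80 and 4.24 at vehicle 6 h and 16 h) and Serpinf1 fell (-0.58 and -1.28); the fitted values of Gpr31b and Wfdc21 come from later vehicle groups at 0 counts and are not sizes of change.

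Genes related to each of the 5, listed by family, pathway or binding, did not move as one. The WAP and serpin lists were drawn mainly by family name and are not lists of known partners. The imiquimod contrasts called 76.9% of all genes at 6 h (37.7% higher and 39.2% lower) and 77.2% at 16 h (39.1% higher and 38.1% lower). Median log2 changes were -0.04 and -0.00. The lists below are read against these values, each count that rose or fell against the share in its own direction. When libraries were scaled by totals the median at 6 h moved to -0.39. Of the genes listed below, Serpina3f, Serpinb9b, Slc1a2 and Gucy2g had few counts in every group without imiquimod. They passed the filter only through imiquimod libraries and had to differ to be tested at all. Their calls, and their part in the list counts, are therefore a description.

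For Wfdc21, 3 of 22 genes of WAP proteins and the neutrophil elastase group were tested. At 6 h 1 rose, 1 fell and 1 was not called (median -0.13), and 1 rose and 2 fell at 16 h (median -1.32). Wfdc17, a WAP protein gene near Wfdc21, rose by 1.35 at 6 h (SE 0.12, edgeR adjusted p = 2.44e-16) and by 0.57 at 16 h (SE 0.12, adjusted p = 3.92e-05). Slpi, the secretory leukocyte protease inhibitor, had a log2 change of -0.13 at 6 h that was not called (adjusted p = 0.215) and fell by 1.32 at 16 h. Its 6 h change was -0.48 and called under scaling by library totals, and -0.23 and called without vehicle 6 h replicate 3 (edgeR adjusted p = 1e-05 and 0.0465). Prtn3, a granule protease, fell at both times (log2 changes of -2.10 and -3.40).

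For Npr1, 8 of 24 genes of natriuretic peptide and cyclic GMP signalling were tested. At 6 h, 5 rose, 1 fell and 2 were not called (median 0.87), and at 16 h 2 rose, 3 fell and 3 were not called (median -0.06). Npr2, the receptor for C-type natriuretic peptide, rose by 1.88 at 6 h (SE 0.33, edgeR adjusted p = 5.51e-07) and fell by 2.03 at 16 h (SE 0.35, adjusted p = 3.03e-07). Furin, the protease that can process natriuretic peptide precursors, rose by 1.56 at 6 h and fell by 0.39 at 16 h. Vasp, a substrate of the cyclic GMP-dependent kinase, rose by 1.24 and 0.82. Pde5a, which breaks down cyclic GMP, fell at both times (-1.19 and -2.99). The guanylyl cyclase gene Gucy2g had 43 summed counts in imiquimod 6 h libraries, against 0 in vehicle 6 h libraries. At 16 h it had 4 with imiquimod, against 1 with vehicle, and was not called (edgeR adjusted p = 0.302). Nppa and Nppb, the genes of the atrial and brain natriuretic peptides, had 0 counts over all 18 libraries.

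For Gpr31b, 6 of 18 genes of lipoxygenases and lipid mediator receptors were tested, and 1 rose and 5 fell at each time (medians -1.84 and -2.64). Alox12, Alox12e and Alox15 did not pass the filter on low counts, with 35, 0 and 9 counts over all 18 libraries. The list therefore does not cover them, and the making of 12-HETE was not tested. Alox5ap, the activating protein of 5-lipoxygenase, fell by 3.12 at 6 h (SE 0.06, edgeR adjusted p = 1.48e-56) and fell by 2.98 at 16 h (SE 0.05, adjusted p = 1.35e-56). Cysltr1, a cysteinyl leukotriene receptor, fell too (-2.35 and -3.40). So did Alox5 itself (-1.33 and -2.30) and Lta4h, which makes leukotriene B4 (-0.97 and -0.25). The gene that rose was Hcar2, a receptor for hydroxy-carboxylic acids, from few counts: 11 summed in imiquimod 6 h libraries, against 3 in vehicle 6 h libraries (edgeR adjusted p = 0.0167), and 39 in imiquimod 16 h libraries, against 1 in vehicle 16 h libraries. All were below the 246 counts at vehicle 0 h. At 6 h no gene of the list was called higher with only the groups compared, without vehicle 6 h replicate 3 or without imiquimod 6 h replicate 3.

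In the family of Serpinf1, 13 of 67 other serpins were tested, and at each time 10 rose, 1 fell and 2 were not called (medians 2.44 and 2.74). Serpina3f rose by 7.85 at 6 h (SE 0.28, edgeR adjusted p = 1.44e-40) and by 7.60 at 16 h (SE 0.42, adjusted p = 3.21e-28). It had 635 and 308 summed counts with imiquimod, against 3 and 1 with vehicle, and was tested only through its imiquimod libraries. Its family member Serpina3g rose by 4.98 and 3.39. Serpinb9, an inhibitor of granzyme B, rose by 4.60 and 3.22. Serpinf1 itself was not set apart at 6 h, when these were already higher.

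All 6 genes named for PEDF binding were tested. At 6 h 4 rose and 2 fell (median 0.31), and at 16 h 2 rose, 2 fell and 2 were not called (median -0.02). Plxdc2, a transmembrane protein described as a PEDF receptor, fell by 2.95 at 6 h (SE 0.12, edgeR adjusted p = 7.91e-36) and fell by 4.88 at 16 h (SE 0.16, adjusted p = 1.54e-43). Its relative Plxdc1 rose by 0.52 at 6 h and fell by 0.48 at 16 h. Pnpla2, a triglyceride lipase that binds PEDF, rose by 0.90 and 0.50, and Atp5b, a subunit of ATP synthase, by 0.69 and 1.11.

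For Grin2c, 10 of 33 genes of glutamate receptors and glutamate handling were tested, with 4 higher, 5 lower and 1 not called at 6 h (median -0.52), and 2, 7 and 1 at 16 h (median -0.80). Grin1, the obligate partner of GluN2C, did not pass the filter on low counts, nor did the other NMDA subunit genes. Slc1a2, the main glial glutamate transporter, rose by 7.43 at 6 h (SE 0.22, edgeR adjusted p = 1.60e-45) and by 4.97 at 16 h (SE 0.39, adjusted p = 8.96e-20). It had 894 and 160 summed counts with imiquimod, against 6 and 4 with vehicle, and was likewise tested only through its imiquimod libraries. Gria3, an AMPA receptor subunit, fell at both times (-1.23 and -2.22). Falls were also called for Grm8, a metabotropic receptor (-1.70 and -3.83), and Glul, glutamine synthetase (-2.08 and -2.70).

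**Figure D4:**
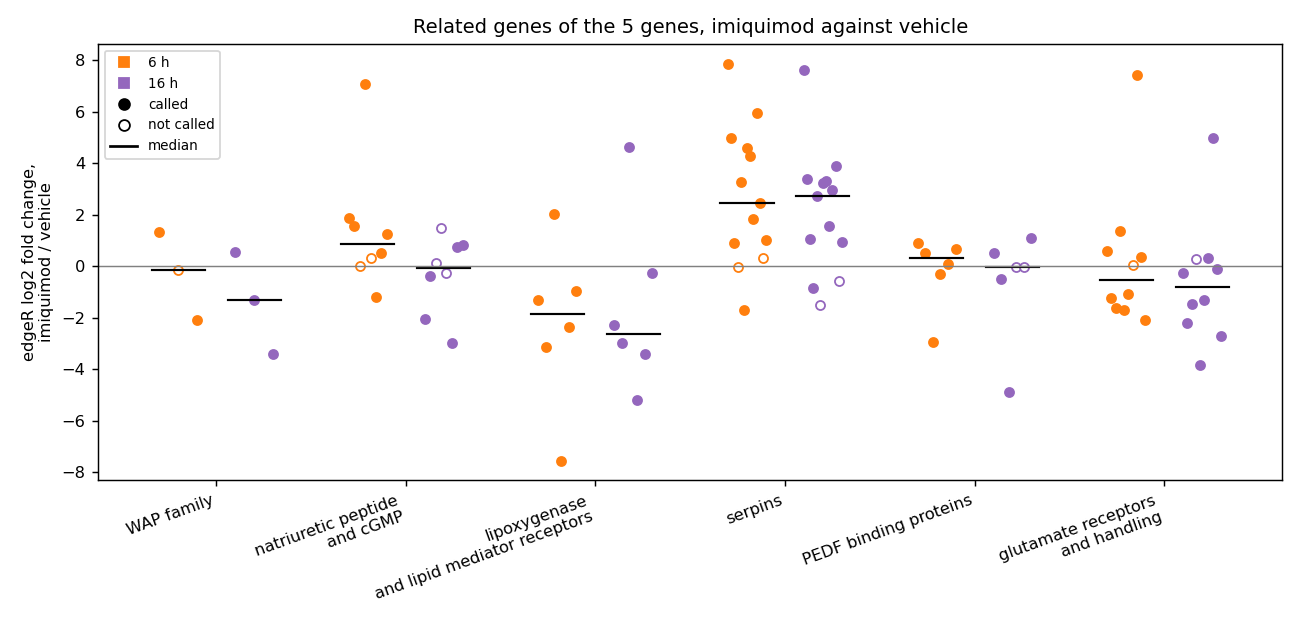
edgeR log2 fold change of imiquimod over vehicle (vertical axis) for every tested gene of the 6 lists at 6 h and 16 h; filled circles were called, open circles were not, and lines are list medians. The serpins lie mostly above 0 (medians 2.44 and 2.74) and the lipoxygenase list mostly below (medians -1.84 and -2.64).

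Of the 5 genes, 3 lie on chromosome 11, Serpinf1, Wfdc21 and Grin2c, with 8324239 and 31496527 bases between neighbours. The nearest tested protein-coding gene on either side was examined for each of the 5. Beside Gpr31b, Unc93a, which encodes a membrane protein, rose at both times, with 1.99 ± 0.28 CPM at imiquimod 6 h, against 0.0257 ± 0.0445 CPM at vehicle 6 h, and 6.95 ± 1.09 CPM at imiquimod 16 h, against 0 at vehicle 16 h (SD, n = 3; edgeR adjusted p = 8.23e-13 and 4.23e-25). Unc93a lies 56321 bases from Gpr31b, and with its vehicle libraries at or near 0 its calls are given as a description. On the other side of Gpr31b, Sod2, the mitochondrial superoxide dismutase, had log2 changes of 0.01 and -0.00 that were not called, with a sign at 6 h that turned to -0.34 under scaling by library totals. Beside Wfdc21, Heatr6 begins 1054 bases past its end and rose by 1.66 at 6 h (SE 0.05) and 1.31 at 16 h (SE 0.05), and Wfdc17 is 40672 bases away. Beside Npr1, Ints3, a subunit of the Integrator complex, rose by 1.04 and 0.65, and Ilf2, an RNA-binding protein gene, by 0.55 and 1.42.

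Grin2c and Fdxr, which encodes the mitochondrial ferredoxin reductase, are on the same strand, and Fdxr ends 781 bases upstream of the Grin2c start. Fdxr rose by 1.63 at 6 h (SE 0.07, edgeR adjusted p = 8.71e-37) and by 0.21 at 16 h (SE 0.08, adjusted p = 0.0138). The 16 h call was lost without vehicle 16 h replicate 3 (log2 change 0.11) or imiquimod 16 h replicate 1 (0.18). Like Grin2c, it had its larger value at 6 h. Tmem104, on the other side, had log2 changes of -0.02 and 0.08 that were not called, and -0.37 at 6 h under scaling by library totals. Beside Serpinf1, Smyd4 fell by 0.78 at 6 h and rose by 0.45 at 16 h, and Wdr81 fell at both times (-0.22 and -0.25).

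**Figure D5:**
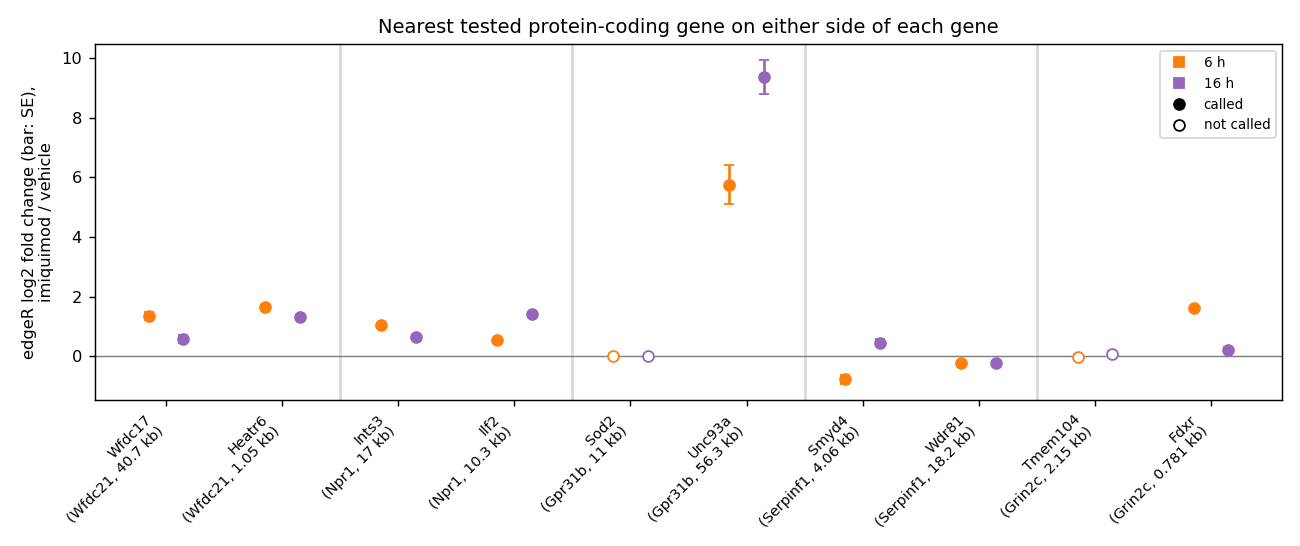
edgeR log2 fold change of imiquimod over vehicle (vertical axis; bars are the SE) at 6 h and 16 h for the nearest tested protein-coding gene on either side of each of the 5 genes, with the distance in kb; open circles were not called. Unc93a beside Gpr31b stands far above the others, whose values lie between -0.78 and 1.66, and its fitted 16 h value comes from a vehicle group at 0 counts.

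The genes with the pattern most like each of the 5 were found by Pearson's r of log2(CPM + 1) over the 18 libraries, among 11418 genes. Because the 18 libraries form 6 groups and share the imiquimod treatment, r describes a shared shape over groups. For Wfdc21 these were Cyp7b1, an oxysterol hydroxylase (r = 0.997), Shisa3 (0.997) and the MHC class I gene H2-K1 (0.997). For Npr1 they were the interferon-inducible genes Rsad2, Oas2 and Cxcl10 (0.997 each). Gpr31b was most like the MHC class Ib gene H2-Q4 (0.996), Ttc39c (0.996) and Tex14 (0.995). Serpinf1 was most like Phb2, a mitochondrial prohibitin (0.979), the folate enzyme gene Mthfd1 (0.974) and the nuclear pore gene Nup160 (0.972). For Grin2c they were Sav1, a scaffold of the Hippo pathway (0.991), the phosphatase gene Ppm1h (0.979) and Igbp1 (0.979). These names depend on the measure, since with Spearman's correlation 0 of the 3 were shared for every gene. Among the 5 themselves, Gpr31b and Wfdc21 were most alike (r = 0.994), and Grin2c and Serpinf1 least (r = 0.112).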

How the data were processed

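The authors deposited whole-number counts, not normalized, for 18 libraries of 2 x 75 base reads (10609741 to 13447018 counts each). Per the submitters' processing notes, STAR and mm10 were used. The STAR version, counting program, strand setting, handling of reads with several matches and annotation are not given in the sources used here. Coordinates and exon lengths are from GENCODE M21, in which 97.6% of the identifiers were found.

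One edgeR 4.0.16 model (R 4.3.3) held all 6 groups, with filterByExpr (minimum count 10), TMM scaling and the robust quasi-likelihood test. Calls needed an adjusted p (Benjamini-Hochberg) below 0.05. The SE is the absolute log2 change divided by the root of F, which understates the error where few counts give a large change. The common dispersion was 0.000951 (biological coefficient of variation 3.08%). Ratios use depth-scaled summed counts with exact conditional binomial 95% intervals, and a floor of 3 counts over a group at 0. The scripts were tested on simulated data. For the fit, few genes were changed in the simulation, so it does not cover a change of most genes, as called with imiquimod here.

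Alternatives were DESeq2 1.42.0 size factors and Wald test, filters, a fit of only the groups compared, a replicate block, leaving out each library and, added after seeing the data, scaling by library totals. Replicates differed by more than sampling noise (chi-square per degree of freedom 1.32 to 10.6), so none was treated as a duplicate. The highest values were those of vehicle 6 h (10.6, 4.26 and 4.215), the reference of the 6 h imiquimod contrast. Untreated 0 h came next, at up to 4.214. The 5 genes and all gene lists were chosen with earlier results of these data known. Genes named from a list are mainly the up to 4 called genes of largest change with a mean of at least 1 CPM. A further pick of this rule is not reported here. Gucy2g and Hcar2 were added after their values were seen. For each of the 5, the 3 genes of highest correlation and the nearest tested neighbours are named.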

Additional observations from a re-analysis of the deposited data

Results flagged for a closer look

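Some related or neighbouring genes moved one way in all imiquimod libraries at 6 h and the opposite way at 16 h, relative to the vehicle libraries of the same time. The difference between the times was not tested. Npr2 had a log2 change of 1.88 at 6 h and -2.03 at 16 h. Its summed counts were low, at 81 with imiquimod, against 27 with vehicle at 6 h, and 22 against 78 at 16 h. Its vehicle mean itself was 0.706 CPM at 6 h and 2.32 CPM at 16 h. Furin had 1.56 and -0.39 at these times. For Plxdc1 the values were 0.52 and -0.48, and for Smyd4, the neighbour of Serpinf1, they were -0.78 and 0.45.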

How the results depend on the processing

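Of 1536 alternative values for 129 results, 1459 kept their direction and call, or stayed within the spread or count limit set for them. Low counts limited Npr1, Gpr31b and Wfdc21, which had 0 to 5 counts in each vehicle library. The fit of only the groups compared gave no value for them in the vehicle comparisons. In vehicle 0 h against untreated cells 0 genes were called, against 1 with DESeq2 size factors, 5 with no filter, 4 with only the groups compared, 1 with scaling by library totals and 0 to 7 when single libraries were left out. The fall of Npr1 at vehicle 16 h was -2.45 and not called by the DESeq2 Wald test.

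With only the groups compared, the higher count of the lipoxygenase list and the lower count of the serpins at 6 h became 0. Scaling by library totals raised the 6 h lower counts to 2 for the WAP list and 2 for the serpins. It moved the median log2 change of all genes by -0.35 at 6 h, with 31.1% of called genes higher in imiquimod, against 49.0% under TMM, and in imiquimod 16 h against imiquimod 6 h 7786 of 10441 calls were higher, against 4739 of 9471. Under it the 6 h log2 ratios were 8.36 for Wfdc21, 9.38 for Npr1, 6.74 for Gpr31b and -0.12 for Serpinf1, and the ratios of imiquimod 16 h to 6 h were 1.53, -1.48, 1.80, 2.60 and -2.20 for Wfdc21, Npr1, Gpr31b, Serpinf1 and Grin2c. Genes near 0 changed sign: Tmem104 at 6 h was 0.00930 with DESeq2 size factors and 0.00907 by its Wald test, and Sod2 at 6 h was -0.0303 with no filter, -0.0102 with only the groups compared and -0.34 by totals. Apart from the shift made by totals, the cause was not tested.

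Leaving out single libraries gave log2 ratios of 8.11 to 8.75 for Wfdc21 at 6 h and 9.16 to 9.77 at 16 h, 8.55 to 9.78 and 7.22 to 8.19 for Npr1, and 6.49 to 7.16 and 7.82 to 8.48 for Gpr31b, where a lone floor of 3 counts over fewer vehicle libraries lowers the bound. The vehicle changes ranged from -4.99 to -1.88 at 6 h and -2.60 to -1.77 at 16 h for Npr1, and from -3.67 to -2.27 at both times for Wfdc21. For vehicle 0 h against untreated, Serpinf1 ranged from -0.0180 to 0.15 and Grin2c from -0.65 to 0.0377. Sod2 ranged from -0.0447 to 0.0336 at 6 h and -0.0242 to 0.0459 at 16 h, and Tmem104 from -0.0154 to 0.18 at 16 h. The 6 h counts ranged from 1 to 2 lower for the WAP list, 0 to 1 higher for the lipoxygenase list and 0 to 1 lower for the serpins.

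Same-numbered libraries did not deviate together (correlations -0.0961 to 0.0325, 0 of 18 pairs over 0.1). No pairing was seen, but this check cannot exclude a shared animal or culture, whose mark could be hidden by noise between libraries. With a replicate block the calls were 7805 and 8633 for vehicle 6 h and 16 h against vehicle 0 h, 11400 and 11448 for imiquimod against vehicle at 6 h and 16 h, 9417 for imiquimod 16 h against 6 h and 0 for vehicle 0 h against untreated, against 7871, 8691, 11439, 11490, 9471 and 0 without it.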
